A study of Homo sapiens with 30 samples.

Results

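The comparison set A375 melanoma cells exposed to MLN4924 for 24 h against A375 cells given the vehicle for the same time. It compared 6 of the 30 arrays of the series: 3 arrays of cells that received 650 nM MLN4924 for 24 h and 3 arrays of cells that received 0.065% DMSO for 24 h. All 30 arrays entered the normalization, the choice of probe sets and the estimate of the spread. Arrays were taken by treatment and time as their titles give them, and no expression value entered that choice. A375 is an established human melanoma line, a single line with an activated BRAF kinase, grown in the same serum-containing medium in both groups. The labels do not say whether the 3 arrays of a group came from separate cultures. The p-values measure the spread between arrays within the 10 groups of the series, which may be technical. The question was how transcript levels stood after the longest exposure of the series.

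MLN4924 (pevonedistat) blocks the NEDD8-activating enzyme, the heterodimer of NAE1 and UBA3 that loads the ubiquitin-like protein NEDD8 onto its conjugating enzymes. The main acceptors of NEDD8 are cullins, the scaffolds of cullin-RING ubiquitin ligases, and these ligases need the modification to be active. Their substrates include the antioxidant factor NRF2 (gene NFE2L2), the replication licensing factor CDT1, the cell cycle inhibitors p21 and p27 and the inhibitor of NF-kB. Arrays of this kind measure RNA, and none of these proteins was measured. Values below are normalized probe set signals, and each log2 change is the difference of group means of log2(signal + 32), which understates changes of dim genes.

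The 6 arrays separated by treatment. On the first principal component of these arrays, which held 74.7% of their variance, the MLN4924 arrays scored 33.9 to 36.8 and the DMSO arrays -35.7 to -34.5. Pearson correlations of log2 signals were 0.989 to 0.992 within groups and 0.954 to 0.959 between them. The deposited signals had medians of 33.6 to 35.2 on MLN4924 arrays and 35.8 to 41.4 on DMSO arrays at the same trimmed mean, and the ACTB 3′ to 5′ signal ratio, which rises as RNA degrades, was 1.26 to 1.33 with MLN4924 and 1.24 to 1.35 with DMSO. Of the melanocyte lineage markers, SOX10 (mean signal 873 with DMSO), ERBB3, S100B and EDNRB were bright in DMSO arrays, while the pigment genes PMEL, MLANA and TYRP1 (27.4, 26.1 and 24.8) lay below the median of all signals, 36.58. The blood markers PTPRC and CD14 and the epithelial markers EPCAM and CDH1 were also below that median in both groups. Other members of these lists were not: 6 of 9 epithelial and 2 of 4 blood markers exceeded it in either group. Among them was KRT18, with a mean signal of 2031 with DMSO.

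After 24 h, 6723 of 19775 genes (34.0%) differed at an adjusted p under 0.05 (limma with Benjamini-Hochberg adjustment over all genes, used for every adjusted p below). Of these, 3142 were higher with MLN4924 (15.9% of genes tested) and 3581 lower (18.1%). Counts of list members below are to be read beside these shares. A call combined with a change of at least 2-fold was made for 1088 genes (5.50%), 442 up and 646 down, and 145 genes moved at least 4-fold, 51 up and 94 down. The median log2 change of all genes was 0.0027 and the median SE 0.123. The 3 MLN4924 arrays did not overlap the 3 DMSO arrays in 8815 genes (44.6%), and 6529 of the called genes were among them. Many genes named below were chosen partly for this lack of overlap, which is therefore no separate support for them. In whole-culture RNA, fewer cells of a kind and less RNA per cell cannot be told apart.

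**Figure D1:**
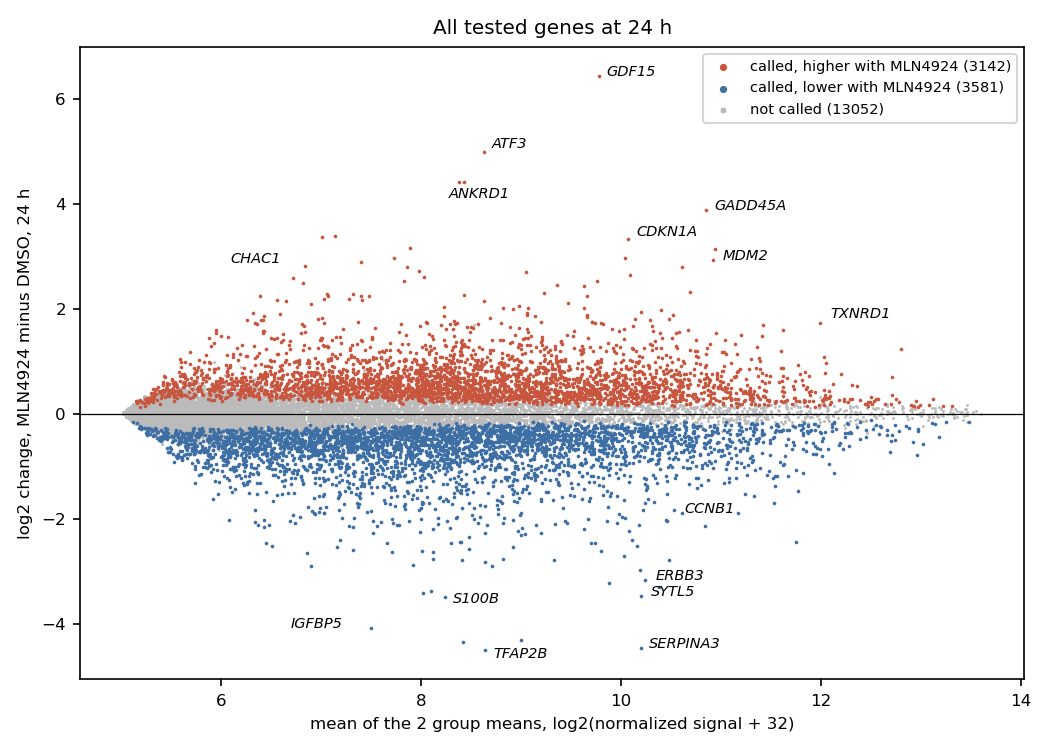
Each point is a gene, with the mean of the 2 group means of log2(signal + 32) on the x axis and the log2 change, MLN4924 minus DMSO at 24 h, on the y axis; called genes are coloured by direction and a few are named. GDF15 stands alone at the top at 6.44, while TFAP2B and SERPINA3 mark the lower edge at -4.51 and -4.46.

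The largest increase was in GDF15, a secreted stress cytokine of the TGF-beta superfamily. Its signal was 8238, 7834 and 8374 with MLN4924, against 76.3, 59.0 and 52.5 with DMSO (log2 change 6.44, SE 0.13, adjusted p = 5.62e-21). The gene was near background in every DMSO array and bright in every treated array, and 2 further probe sets of it, both dim, were also called higher at 0.42 and 1.14. ATF3, a stress-inducible transcription factor of the ATF/CREB family, read 2095, 2178 and 2326 with MLN4924, against 27.8, 52.5 and 37.3 with DMSO (log2 change 4.98, SE 0.11, adjusted p = 9.94e-21). The muscle ankyrin repeat protein gene ANKRD1, a target of YAP, read 1433, 1493 and 1598 with MLN4924, against 36.8, 43.0 and 40.1 with DMSO (log2 change 4.42, SE 0.12, adjusted p = 6.92e-19). For these genes every treated array was several times brighter than every control array. GADD45A, which restrains the cell cycle after genotoxic stress, had signals of 6519, 7631 and 7008 with MLN4924, against 485, 406 and 459 with DMSO, a log2 change of 3.88. CDKN1A, encoding the CDK inhibitor p21, had signals of 3412, 3252 and 3529 with MLN4924, against 259, 315 and 355 with DMSO (log2 change 3.34, SE 0.13, adjusted p = 7.46e-16), so it was already well expressed in control cells.

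Beyond these, the 15 largest increases included genes of cell contact, growth factors and transcription. NECTIN4, an adhesion molecule of the nectin family, read 414, 412 and 446 with MLN4924, against 7.93, 16.2 and 11.6 with DMSO (log2 change 3.38, SE 0.20, adjusted p = 8.64e-13). NRG1, a ligand of ERBB3 and ERBB4, read 469, 554 and 678 with MLN4924, against 39.5, 42.5 and 51.1 with DMSO, a log2 change of 2.96. Its 6 probe sets ran from 0.05 to 2.96, and 3 of them, all dim, were not called. SNAPC1, a subunit of the complex that starts transcription of small nuclear RNA genes, read 5855, 5855 and 5680.2 with MLN4924, against 664, 618 and 601 with DMSO (log2 change 3.14, SE 0.07, adjusted p = 3.78e-20). NECTIN4 and NRG1 were bright in treated arrays and near the median signal or below it in controls, while SNAPC1 was bright in both groups. PLCXD2, a phospholipase C-like gene, changed by 4.42, ELAPOR1, an endosomal and lysosomal membrane protein gene, by 3.37, and ESM1, a secreted proteoglycan gene, by 3.16. The tetraspanin gene TSPAN2 changed by 2.90. CCN2, MDM2 and CHAC1 complete the 15 and are described with their groups.

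The largest decreases fell on lineage, matrix and signalling genes. TFAP2B, an AP-2 transcription factor of neural crest derivatives, read 59.7, 47.3 and 48.7 with MLN4924, against 1885, 1848 and 1898 with DMSO (log2 change -4.51, SE 0.10, adjusted p = 1.76e-20). SERPINA3, a secreted protease inhibitor, read 234, 212 and 212 with MLN4924, against 5329, 5659 and 5521 with DMSO (log2 change -4.46, SE 0.10, adjusted p = 9.94e-21). HAPLN1, which links hyaluronan to proteoglycans, read 94.1, 81.2 and 74.1 with MLN4924, against 2319.6, 2311 and 2121 with DMSO (log2 change -4.31, SE 0.10, adjusted p = 5.5e-20). All 3 were bright in each DMSO array and far lower in each treated array, where TFAP2B lay nearest to the median of all signals. CEMIP, a hyaluronan-degrading protein gene, read 42.1, 47.8 and 40.9 with MLN4924, against 1495, 1610.5 and 1456 with DMSO (log2 change -4.36, SE 0.11, adjusted p = 1.69e-19). The CEMIP call rests on 1 probe set of a class that may bind several transcripts, and the only other set, dim in all arrays, showed a log2 change of -0.02 and was not called. IGFBP5, a secreted binder of insulin-like growth factors, read 14.5, 15.9 and 5.47 with MLN4924, against 668, 795 and 680.2 with DMSO (log2 change -4.09, SE 0.13, adjusted p = 4.72e-18). Its 6 probe sets ran from -4.09 to -0.29, the second lowest at -1.20, and 1 of them, dim, was not called. TUBA1A, an alpha-tubulin isotype, had signals of 275, 271 and 281 with MLN4924, against 3032, 2806 and 2735 with DMSO, a log2 change of -3.23. Of the remaining genes, the synaptotagmin-like gene SYTL5 changed by -3.47, the calcium-regulated factor NFATC2 by -3.42, the ADP-ribosyltransferase family gene ART3 by -3.37, the pseudokinase gene TRIB2 by -2.91 and the calcium-binding gene CAPS by -2.88.

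**Figure D2:**
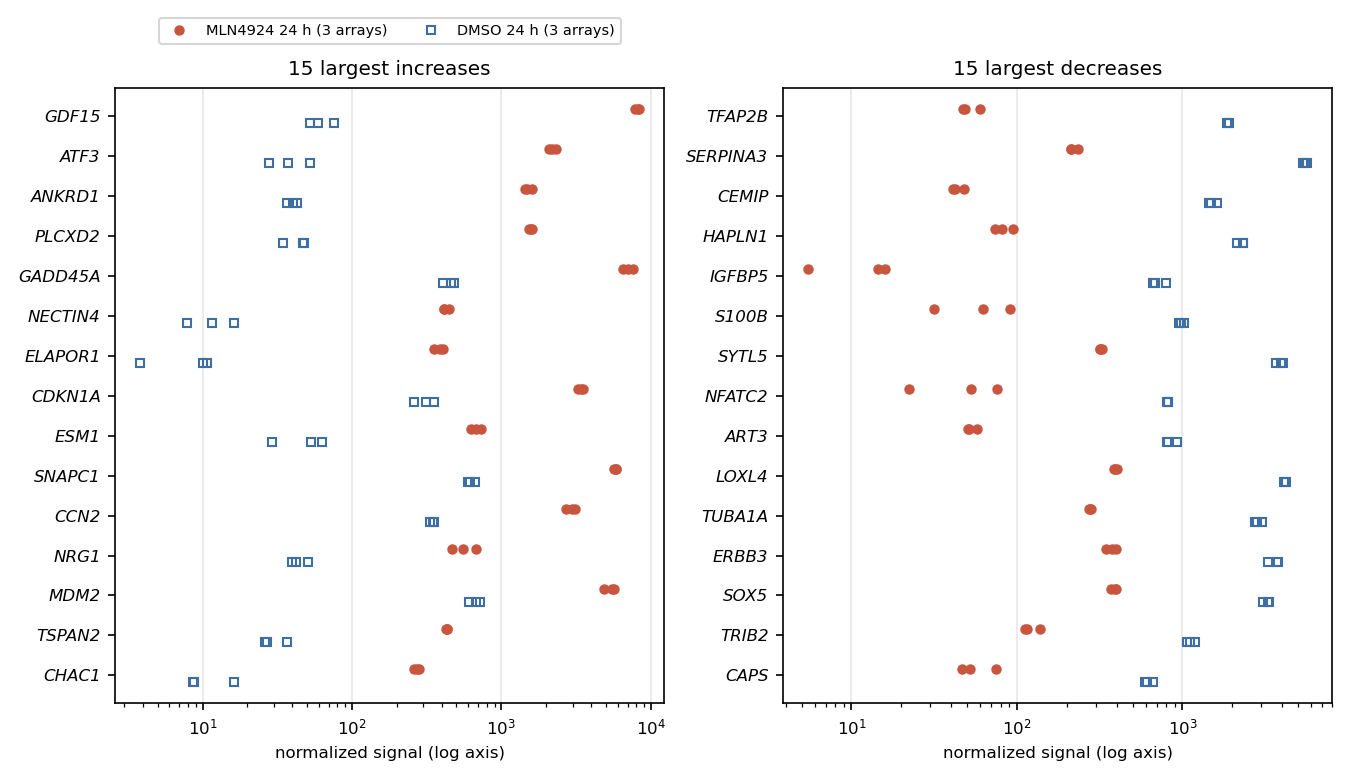
Normalized signal of each array on a log x axis for the 15 largest increases and the 15 largest decreases, with MLN4924 arrays above DMSO arrays for each gene. Lack of overlap between the groups was a condition for choosing these genes. Arrays of a group can lie farther apart at low signal, as with MLN4924 for IGFBP5 (14.5, 15.9 and 5.47) and S100B (90.3, 62.1 and 31.8).

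Most changes in the drug's own pathway were under 2-fold, as they were among all genes. Of 23 measured genes of NEDD8 conjugation and the cullins, 7 rose and 5 fell (median 0.05, against 0.0027 for all genes), a called share of 52.2% against 34.0% of all genes. Of the 23, 1 gene, UBE2F, was called at 2-fold or more, against 5.50% of all genes. NEDD8 itself had signals of 2467, 2502 and 2325 with MLN4924, against 2821, 2744 and 2795 with DMSO (log2 change -0.20, SE 0.06, adjusted p = 0.0137), a call that was lost in 4 of the alternative settings. NAE1, the regulatory subunit of the target enzyme, was not called at 3335, 3362 and 3335 with MLN4924, against 3071, 3042 and 3011 with DMSO (log2 change 0.14, SE 0.05, adjusted p = 0.0556), although it passed the threshold in 6 of the alternatives. UBA3, its catalytic subunit, read 1587, 1191 and 1116 with MLN4924, against 2147, 2029 and 1776 with DMSO (log2 change -0.61, SE 0.15, adjusted p = 0.00181). The arrays of the groups were apart for UBA3, with every treated array lower. UBE2F, the NEDD8 conjugating enzyme that serves CUL5, read 346, 335 and 360.2 with MLN4924, against 843, 813 and 791 with DMSO (log2 change -1.16, SE 0.08, adjusted p = 9.55e-12), with no overlap between groups. Of the RING partners, RBX1 changed by -0.64 and RNF7, which works with CUL5, by 0.42. Of the scaffolds, CUL1 was not called (log2 change 0.12, SE 0.09, adjusted p = 0.326), CUL3 rose by 0.20 and CUL5 by 0.28, and CUL2, CUL4A, CUL4B, CUL7 and CUL9 were not called. The DCUN1D co-ligases DCUN1D2, DCUN1D3, DCUN1D4 and DCUN1D5 rose by 0.70, 0.56, 0.38 and 0.30, and CAND1, the exchange factor of unmodified cullins, fell by 0.47 on the log2 scale.

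Of the 10 measured subunits of the COP9 signalosome, the complex that removes NEDD8 from cullins, 3 rose and 0 fell: COPS2 (0.25), COPS7B (0.33) and GPS1 (0.38). That called share, 30%, was near the 34.0% of all genes. Without the probe sets that may bind several transcripts, 2 of 9 rose. Its catalytic subunit COPS5 had a log2 change of 0.09 and was not called. Among 46 measured substrate receptors and adaptors of cullin-RING ligases, 11 rose and 14 fell (median -0.01). These were 23.9% and 30.4% of them, against 15.9% of all genes called higher and 18.1% lower. The receptors of CUL4 ligases stood at the upper end: DDB2, the damaged-DNA sensor and a p53 target, read 1559, 1459.8 and 1582 with MLN4924, against 434, 454 and 425 with DMSO (log2 change 1.74, SE 0.09, adjusted p = 1.44e-13), and DTL (CDT2), which targets CDT1 and p21, read 2178, 2275 and 2347 with MLN4924, against 799.7, 727 and 745 with DMSO (log2 change 1.54, SE 0.08, adjusted p = 4.77e-14). FBXW7, the receptor for cyclin E and MYC, rose by 0.92 and SKP2, the receptor for p27, by 0.33. At the lower end, the muscle atrophy F-box gene FBXO32 changed by -1.57, cyclin F (CCNF) by -1.16, SOCS2 by -1.10 and ENC1 by -1.03. KEAP1, the receptor for NRF2, had a log2 change of 0.27 and BTRC, the receptor for the inhibitor of NF-kB, one of -0.21, and neither was called.

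Genes known as p53 targets rose as a group. Of 31 measured, 26 rose and 1 fell, with a median of 1.32, against 15.9% of all genes called higher and a median of 0.0027. The targets covered arrest, repair, feedback and death. MDM2, the ubiquitin ligase that restrains p53, read 5494, 5649.9 and 4842 with MLN4924, against 605, 724 and 677 with DMSO (log2 change 2.94, SE 0.10, adjusted p = 1.55e-17), and all 10 of its probe sets rose, by 1.01 to 3.51. FAS, a death receptor, read 1311, 1302 and 1339 with MLN4924, against 187, 173 and 169.8 with DMSO (log2 change 2.69, SE 0.07, adjusted p = 1.14e-19). All treated arrays of MDM2 and FAS lay above all control arrays. SESN2, a stress-responsive regulator of mTORC1 and also an ATF4 target, read 301, 435 and 348 with MLN4924, against 52.0, 56.5 and 42.5 with DMSO, a log2 change of 2.24. PPM1D, a phosphatase that shuts off the p53 response, rose by 2.02, PLK2 by 1.89, SESN1 by 1.71, the ribonucleotide reductase subunit RRM2B by 1.58, the nuclease gene AEN by 1.46 and the repair gene XPC by 1.27. Log2 changes of the risen members ran from 0.23 for CCNG1 to 6.44 for GDF15. BTG1 fell by 0.57 on the log2 scale, and POLH, SPATA18, PLK3 and EDA2R were not called. GDF15, SESN2 and GADD45A are known to respond to other stress pathways as well. Without the probe sets that may bind several transcripts, 17 of the 22 members left rose (median 1.26).

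Members of the BCL2 and death receptor groups changed in both directions. Of 17 genes of the BCL2 family, 5 rose and 2 fell (median 0.14). These were 29.4% and 11.8% of them, against 15.9% of all genes called higher and 18.1% lower. PMAIP1 (NOXA), a BH3-only trigger of apoptosis, read 2058, 2062 and 2104 with MLN4924, against 547, 578 and 598 with DMSO (log2 change 1.80, SE 0.07, adjusted p = 2.61e-16). The pore formers BAX and BAK1 rose by 1.01 and 1.02, but so did the survival gene BCL2L1 (BCL-XL), with signals of 248, 282 and 222 with MLN4924, against 122, 91.9 and 91.6 with DMSO (log2 change 1.08, SE 0.14, adjusted p = 1.17e-06). MCL1, a survival factor that NOXA binds, fell by 0.24 on the log2 scale, and BCL2, BCL2L11 (BIM) and BID were not called. Of 19 further apoptosis genes, 6 rose and 6 fell (median -0.12, and 5 up and 2 down of 15 without the probe sets that may bind several transcripts). The TRAIL receptors TNFRSF10A and TNFRSF10B rose by 1.23 and 1.23. TNFRSF21 changed by -1.42, the effector caspase CASP6 by -0.77 and the initiators CASP9 and CASP8 by -0.51 and -0.26, and the inhibitors BIRC2 and XIAP changed by 0.78 and -0.43.

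ATF4 targets rose without exception among those called. ATF4 is the factor made when phosphorylated eIF2-alpha slows general translation, and its targets supply amino acids and charge tRNAs. Of 35 measured targets, 26 rose and 0 fell (median 0.79, against 15.9% of all genes called higher and a median of 0.0027). ATF3 led them. TRIB3, a pseudokinase that feeds back on ATF4, read 2676, 2567 and 2842 with MLN4924, against 401, 416 and 403 with DMSO (log2 change 2.63, SE 0.06, adjusted p = 1.32e-20). CHAC1, which degrades glutathione, read 283, 259.7 and 274 with MLN4924, against 16.2, 8.80 and 8.65 with DMSO (log2 change 2.82, SE 0.08, adjusted p = 3.17e-18). Both were several-fold brighter in each treated array than in any control array. CEBPG, a dimer partner of ATF4, rose by 1.86, DDIT3 (CHOP) by 1.68, and ATF4 itself by 0.46. Amino acid transport genes rose as well, SLC3A2 by 1.84, SLC7A5 by 1.80, SLC7A11, the cystine carrier, by 1.21, SLC1A5 by 0.95 and SLC7A1 by 0.92. Of the biosynthetic enzymes, CTH rose by 1.61, ASNS by 1.54, PSPH by 1.13, MTHFD2 by 1.09, PSAT1 by 0.79 and PHGDH by 0.70. ALDH18A1, PYCR1, CBS, VLDLR and SLC38A2 were among the 9 targets not called.

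Of 15 cytosolic aminoacyl-tRNA synthetase genes, which ATF4 also drives, 12 rose and 0 fell (median 0.45), against 15.9% of all genes called higher. SARS1 read 2303, 2298 and 2506 with MLN4924, against 888, 828 and 853 with DMSO (log2 change 1.43, SE 0.07, adjusted p = 6.3e-14). YARS1 read 3004, 3122 and 3085 with MLN4924, against 1293, 1324 and 1393 with DMSO (log2 change 1.18, SE 0.06, adjusted p = 2.05e-13), and GARS1 had a log2 change of 1.01. Groups did not overlap for these synthetases, while LARS1, RARS1 and WARS1 were not called.

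The ATF3 promoter held a match to the core of the C/EBP-ATF response element, the composite site that ATF4 and its partners bind, searched as TGATGNAA on both strands. Such a match lay in the 300-base window of 5 of the 22 risen ATF4 targets with a promoter in the RefSeq table (22.7%), namely ATF3, CHAC1, SLC3A2, ASNS and SLC7A1, and in 3.62% of all 35116 windows. Of all 29 listed targets with a promoter, called or not, 6 held it (20.7%). The window runs from 250 bases before the gene start to 50 after it. The ATF3 window (chr1:212565157-212565456, plus strand, GRCh38.p14) is shown as that of the risen target with the largest change, with the match, starting 191 bases before the gene start, in capitals.
ATF3: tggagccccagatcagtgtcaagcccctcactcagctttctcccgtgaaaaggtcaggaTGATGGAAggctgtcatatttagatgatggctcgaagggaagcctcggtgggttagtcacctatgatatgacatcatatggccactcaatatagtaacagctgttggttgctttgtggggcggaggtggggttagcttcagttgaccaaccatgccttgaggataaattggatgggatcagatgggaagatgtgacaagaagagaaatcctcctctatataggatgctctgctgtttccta

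NRF2 targets also rose, more moderately. NRF2 is degraded through KEAP1 and CUL3, and its targets make glutathione and NADPH and reduce thiols and carbonyls. Of 35 measured targets, 24 rose and 1 fell (median 0.34), against 15.9% of all genes called higher and 18.1% lower. NFE2L2 itself was not called (log2 change 0.01, SE 0.07, adjusted p = 0.958), with signals of 1565, 1494 and 1399.9 with MLN4924, against 1492, 1531 and 1409 with DMSO. AKR1B10, an aldo-keto reductase, read 221, 254 and 234 with MLN4924, against 15.5, 29.8 and 4.87 with DMSO (log2 change 2.49, SE 0.13, adjusted p = 1.43e-13). SRXN1, which repairs oxidized peroxiredoxins, read 1669, 1747 and 1782 with MLN4924, against 348, 335 and 336 with DMSO (log2 change 2.25, SE 0.07, adjusted p = 1.72e-17). For both genes the treated arrays lay far above the controls. TXNRD1, thioredoxin reductase, read 7367, 7354 and 7475 with MLN4924, against 2165, 2194 and 2277 with DMSO (log2 change 1.73, SE 0.06, adjusted p = 9.37e-17). GCLM, the modifier subunit of the first enzyme of glutathione synthesis, read 1776, 1787 and 1799 with MLN4924, against 569, 534 and 595 with DMSO (log2 change 1.61, SE 0.08, adjusted p = 8.24e-14), whereas the catalytic subunit GCLC rose by 0.25. HMOX1, heme oxygenase, rose by 1.42 and BLVRB, the next enzyme of heme breakdown, by 1.27. NQO1, often used as a marker of NRF2, rose by 0.27, with mean signals of 7548 ± 251 with MLN4924 and 6246 ± 145 with DMSO (SD, n = 3 each). CBR3, a carbonyl reductase, went the other way (log2 change -1.33, SE 0.08, adjusted p = 2.6e-12), and AKR1C2, AKR1C3, TXN and ABCC3 were not called.

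A match to the antioxidant response element, searched as TGACNNNGC on both strands, lay in the windows of 5 of 18 risen NRF2 targets (27.8%), TXNRD1, GCLM, ME1, PGD and GLA, and in 13.3% of all windows. Of all 26 listed targets with a window, called or not, 8 held it (30.8%), so it was no more frequent among the risen ones. The TXNRD1 window (chr12:104215529-104215828, plus strand, GRCh38.p14) held 2, in capitals, 99 bases before the start on the gene's strand and 8 bases before it on the other strand.
TXNRD1: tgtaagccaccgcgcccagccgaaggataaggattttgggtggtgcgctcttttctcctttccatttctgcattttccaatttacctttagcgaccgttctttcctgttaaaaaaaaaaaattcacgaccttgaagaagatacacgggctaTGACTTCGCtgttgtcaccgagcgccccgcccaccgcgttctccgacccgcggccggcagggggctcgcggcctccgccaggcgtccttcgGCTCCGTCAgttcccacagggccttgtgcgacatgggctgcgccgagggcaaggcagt

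**Figure D3:**
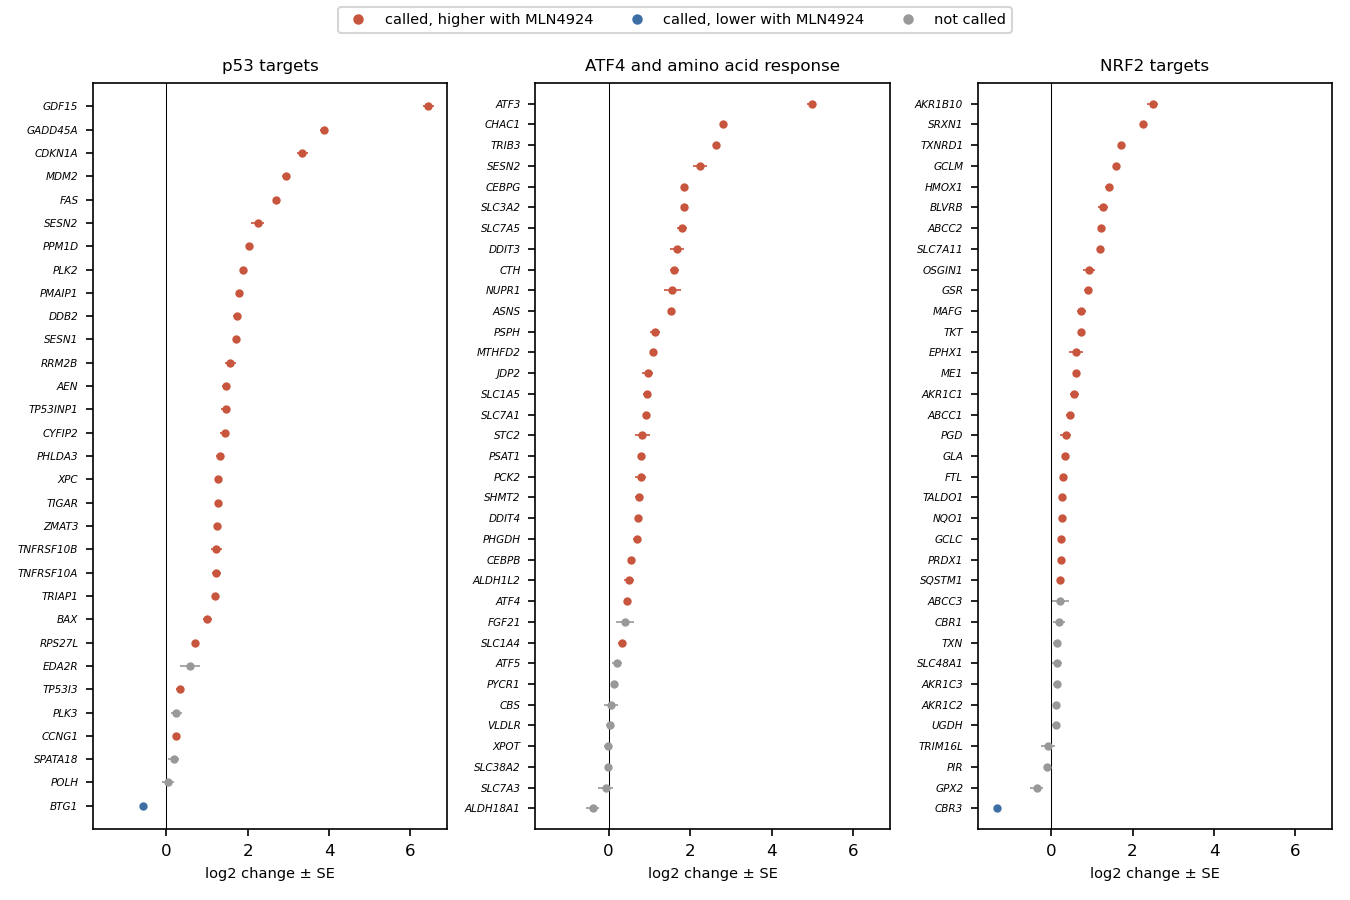
Log2 change, MLN4924 minus DMSO at 24 h, of each measured member of the p53, ATF4 and NRF2 lists in order of size, with bars of 1 SE and called members coloured by direction. Most members of each list lie to the right of 0, with medians of 1.32 for p53 targets, 0.79 for ATF4 targets and 0.34 for NRF2 targets.

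Cell cycle genes split by phase. Of 49 genes of G1/S entry and DNA replication, 22 rose and 5 fell (median 0.16). These were 44.9% and 10.2% of them, against 15.9% of all genes called higher and 18.1% lower. E2F7, an E2F that represses its own class, read 2182, 2303 and 2401 with MLN4924, against 615, 727 and 596 with DMSO (log2 change 1.78, SE 0.08, adjusted p = 3.61e-15). CDC25A, the phosphatase that activates CDK2, read 437, 429 and 501 with MLN4924, against 159, 146 and 154 with DMSO (log2 change 1.40, SE 0.10, adjusted p = 6.38e-11), and CDC6, which loads the MCM helicase with CDT1, read 1126, 1133 and 1177 with MLN4924, against 493, 489 and 494 with DMSO (log2 change 1.17, SE 0.09, adjusted p = 3.57e-10). Each of these had no overlap between groups. CDT1, whose protein is stabilized when CUL4 ligases fail, was not called at 451, 536 and 479 with MLN4924, against 476, 481 and 339.5 with DMSO (log2 change 0.18, SE 0.22, adjusted p = 0.618). Cyclin E genes CCNE1 and CCNE2 rose by 0.75 and 0.40. Subunits of the MCM helicase did not move together: MCM7 and MCM5 rose by 0.59 and 0.45, MCM6 read 992, 1045 and 937 with MLN4924, against 1618, 1763 and 1713 with DMSO (log2 change -0.76, SE 0.06, adjusted p = 5.95e-11), MCM4 fell by 0.29 on the log2 scale, and MCM2 and MCM3 were not called. PCNA, RRM1 and CDC45 were not called either.

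A match to the E2F site, searched as TTTNNCGC on both strands, lay in the windows of 11 of 18 risen G1/S genes (61.1%), against 6.89% of all windows. It also lay in 2 of the 4 fallen G1/S genes with a window, MCM6 and UHRF1, and in 24 of all 43 listed genes with a window (55.8%). The CDC25A window (chr3:48188368-48188667, minus strand, GRCh38.p14) is printed for the gene with the largest rise among those holding a match. The match, 44 bases before the start, is in capitals.
CDC25A: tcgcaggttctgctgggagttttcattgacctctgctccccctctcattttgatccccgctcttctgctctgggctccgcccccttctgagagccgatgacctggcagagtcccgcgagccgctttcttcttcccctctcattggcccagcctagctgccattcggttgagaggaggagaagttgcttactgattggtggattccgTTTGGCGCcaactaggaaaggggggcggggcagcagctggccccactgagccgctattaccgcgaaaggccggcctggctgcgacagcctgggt

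Genes of G2 and mitosis fell almost throughout. Of 52 measured, 0 rose and 49 fell (median -0.94), against 18.1% of all genes called lower. Without the probe sets that may bind several transcripts, 31 of the 40 members left fell (median -0.94). HMMR, a spindle-associated protein, read 219.9, 253 and 171 with MLN4924, against 1741, 1596 and 1664 with DMSO (log2 change -2.80, SE 0.10, adjusted p = 2.33e-16). KIF20A, the kinesin of cytokinesis, read 132, 124 and 124 with MLN4924, against 744, 799 and 775 with DMSO (log2 change -2.34, SE 0.16, adjusted p = 1.1e-11). ASPM, which organizes spindle poles, read 501, 486 and 485 with MLN4924, against 1979, 1986 and 2048 with DMSO (log2 change -1.96, SE 0.05, adjusted p = 9.69e-20). CCNB1, cyclin B1, had signals of 787, 754 and 717 with MLN4924, against 2808, 2725 and 2775 with DMSO, a log2 change of -1.84. Treated arrays of these genes stayed above background but below every control array. The fall covered kinases (PLK1 -1.53, BUB1 -1.59, AURKA -1.47, TTK -1.38, CDK1 -1.26, AURKB -0.77), motors (KIF14 -1.69, CENPE -1.45, KIF11 -1.07) and the ubiquitin machinery of anaphase (UBE2C -1.22, CDC20 -0.98). The proliferation marker MKI67 moved less (-0.48), as did FOXM1 (-0.29), the factor that drives many of these genes. NUSAP1, SGO1 and ESPL1 were not called.

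The cell cycle homology region, through which the MuvB complex acts on late cell cycle promoters, was searched as TTTGAA on both strands. It lay in 30 of the 42 fallen G2/M genes with a window (71.4%), against 15.2% of all windows and 12.4% of windows of all called lower genes. Of all 45 listed genes with a window, called or not, 32 held it (71.1%). The HMMR window (chr5:163460382-163460681, plus strand, GRCh38.p14) belongs to the member with the largest fall and held 2 adjoining matches, in capitals, starting 28 and 22 bases before the gene start.
HMMR: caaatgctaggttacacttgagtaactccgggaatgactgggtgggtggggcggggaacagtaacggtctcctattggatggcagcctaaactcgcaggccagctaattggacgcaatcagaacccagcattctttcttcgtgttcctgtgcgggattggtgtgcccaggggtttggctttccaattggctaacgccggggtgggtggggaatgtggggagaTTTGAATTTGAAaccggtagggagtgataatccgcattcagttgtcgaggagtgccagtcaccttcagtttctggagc

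Of 16 CDK inhibitors, G1 cyclins and pocket proteins, 4 rose and 7 fell (median -0.07), against 15.9% of all genes called higher and 18.1% lower. CDKN1A was the only riser above 0.5. Its relatives fell: CDKN1C (p57) read 24.2, 35.1 and 40.0 with MLN4924, against 339, 466 and 293 with DMSO (log2 change -2.60, SE 0.19, adjusted p = 6.69e-11), and CDKN1B (p27) read 717, 671 and 721 with MLN4924, against 1365, 1458 and 1377 with DMSO (log2 change -0.96, SE 0.07, adjusted p = 9.73e-11). All treated arrays of both genes were below all controls. RBL2 (p130) changed by -1.51 and RB1 by -0.86, while CCND1 rose by 0.32 and CDKN2A by 0.38. Of 36 DNA repair and checkpoint genes, 12 rose (33.3%) and 11 fell (30.6%), with a median of 0.08. EXO1, a resection nuclease, read 694, 694 and 732 with MLN4924, against 235, 226 and 278 with DMSO (log2 change 1.41, SE 0.08, adjusted p = 4.34e-13), and TIPIN, of the fork protection complex, rose by 0.87, while its partner TIMELESS changed by -0.63. CHEK1, the replication checkpoint kinase, read 432, 416 and 391 with MLN4924, against 825, 1026 and 872 with DMSO (log2 change -1.07, SE 0.16, adjusted p = 5.39e-06), and H2AX, ATM and WEE1 changed by -0.97, -0.85 and -0.74. Of 31 histone genes, 18 of them below the median signal, 3 rose and 4 fell (median 0.00). That called share, 22.6%, was below the 34.0% of all genes. H2BC12 had the largest change (-1.63), and probe sets of the clustered histone genes can share sequence.

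**Figure D4:**
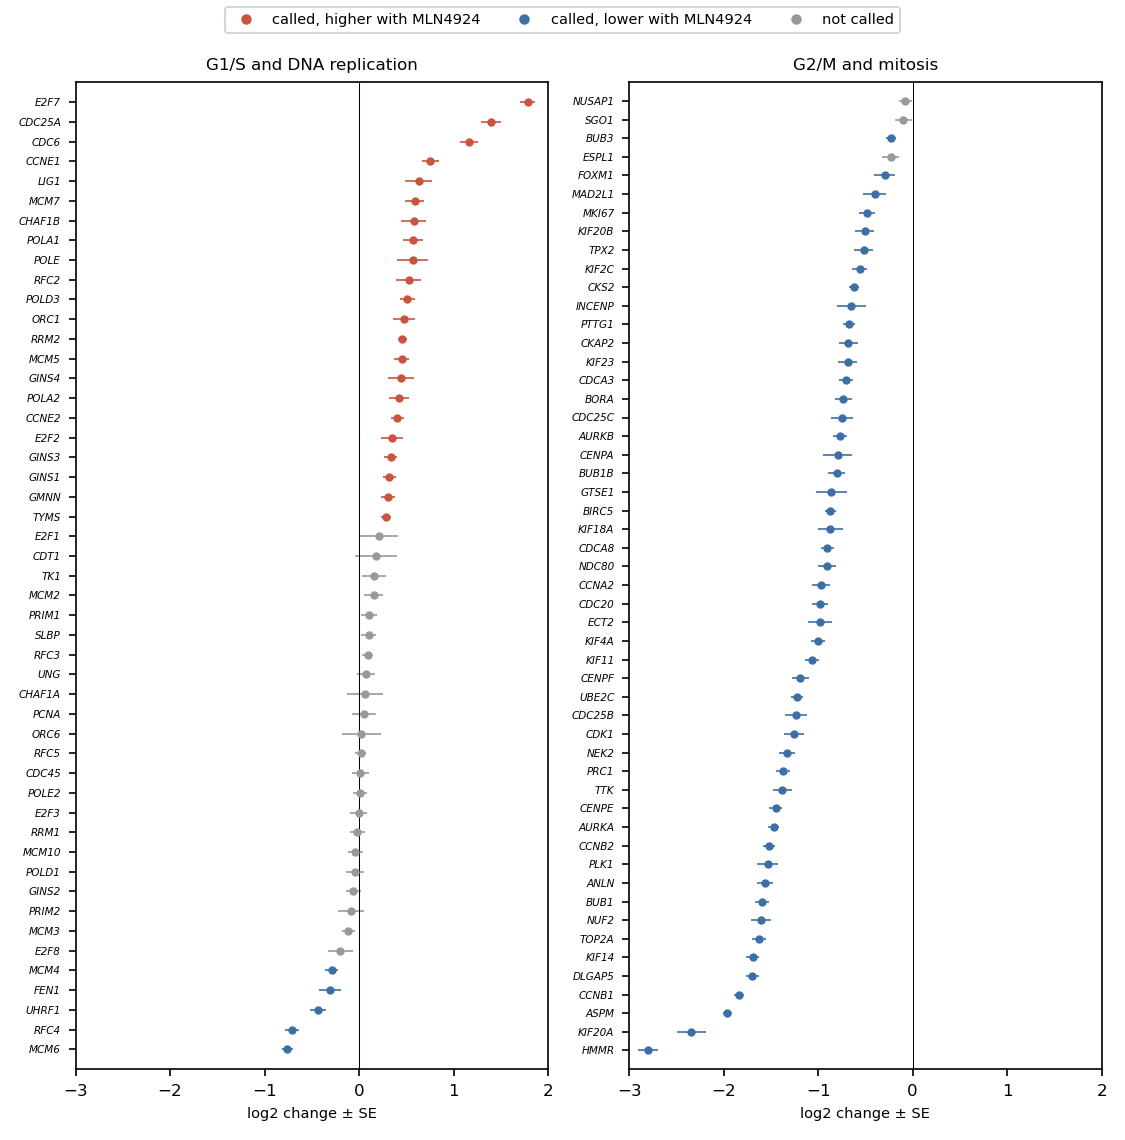
Log2 change, MLN4924 minus DMSO at 24 h, of the measured G1/S genes and G2/M genes in order of size, with bars of 1 SE and called genes coloured by direction. G1/S genes run from -0.76 for MCM6 to 1.78 for E2F7, and no G2/M gene lies above 0, the lowest being HMMR at -2.80.

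MYC and the genes that build ribosomes rose. MYC, a growth-promoting transcription factor and itself a substrate of a cullin ligase, read 812, 797 and 794 with MLN4924, against 145, 166 and 159.6 with DMSO (log2 change 2.14, SE 0.09, adjusted p = 2.71e-15), with no overlap between groups. Of 10 genes of its network, 5 rose and 2 fell: the partner MAX rose by 0.73 and the antagonists MXD1 and MXI1 by 1.00 and 0.66, while MNT and MXD3 changed by -0.77 and -0.72. MYCN rose by 0.78 on a dim probe set, and the other 9 probe sets of its 10 were not called. Of 21 ribosome biogenesis genes, 16 rose and 0 fell (median 0.63), against 15.9% of all genes called higher and 18.1% lower. PES1, of the complex that matures the large subunit RNAs, read 586, 438 and 454 with MLN4924, against 173, 143 and 201 with DMSO (log2 change 1.36, SE 0.12, adjusted p = 1.24e-09), and RRS1, RRP12 and WDR43 rose by 1.13, 1.13 and 1.12. The nucleolar proteins NCL and NPM1 and the polymerase I genes POLR1A, POLR1B and UBTF were not called. Of 50 genes of the ribosomal proteins themselves, 1 rose and 1 fell (median 0.01). Their median became 0.23 with signals as deposited and 0.31 with median centring, which called 6 up and 0 down, and 9 of the 29 members left rose and 0 fell without the probe sets that may bind several transcripts. RPL19, which rose by 0.15, lost its call in several alternatives, among them signals as deposited (adjusted p = 0.0615). RPL37, which fell by 0.16 on the log2 scale, turned positive under both of these scalings and 3 of its 4 probe sets rose.

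Immediate early and MAPK genes split. In A375 cells, activated BRAF feeds the MAPK cascade, whose steady outputs are feedback inhibitors of the Sprouty, Spred and DUSP families and ETV factors. Of 22 such genes, 7 rose and 13 fell (median -0.47), against 15.9% of all genes called higher and 18.1% lower. ETV1, an ETS factor, read 121, 119 and 95.8 with MLN4924, against 764, 757 and 744 with DMSO (log2 change -2.45, SE 0.11, adjusted p = 4.17e-15). SPRY2 read 697, 675 and 609.9 with MLN4924, against 2834, 2884 and 2640.4 with DMSO (log2 change -2.03, SE 0.07, adjusted p = 9.63e-17), and SPRY4, SPRED1, ETV5 and DUSP6 changed by -1.56, -1.30, -1.20 and -1.07. Every treated array of ETV1 and SPRY2 was below every control array. In the same list DUSP5, a nuclear ERK phosphatase, read 1058, 986 and 1093 with MLN4924, against 284, 284 and 298 with DMSO (log2 change 1.75, SE 0.11, adjusted p = 4.75e-12), EPHA2, an ephrin receptor, rose by 1.75, and DUSP1 rose by 1.49. Of 24 immediate early genes, 11 rose and 4 fell (median 0.30). The AP-1 genes FOSL2, JUN, JUND and FOSL1 rose by 1.74, 1.68, 1.32 and 0.93, while FOS itself fell by 0.75 on the log2 scale and FOSB was not called. EGR1 rose by 1.03, whereas EGR3 and NR4A2 changed by -1.33 and -1.99.

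Targets of YAP and of the actin-responsive factor SRF mostly rose. Of 22 measured, 14 rose and 1 fell (median 0.72), with ANKRD1 at the top, against 15.9% of all genes called higher. CCN2 (CTGF), a matricellular protein, read 3109.6, 2967 and 2717 with MLN4924, against 355, 331 and 349 with DMSO (log2 change 2.97, SE 0.10, adjusted p = 4.1e-17). Its relative CCN1 (CYR61) read 4198, 4431 and 3702 with MLN4924, against 607, 535 and 547 with DMSO (log2 change 2.80, SE 0.12, adjusted p = 1.75e-15). Both were several-fold brighter in all treated arrays. AJUBA, a LIM protein that binds the Hippo kinases, rose by 2.43, smooth muscle actin ACTA2 by 1.74 and the Hippo kinase gene LATS2 by 1.19. THBS1, TAGLN, CNN1 and VCL were not called.

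No melanocyte lineage gene rose. Of 20 measured, 0 rose and 10 fell (median -0.25), against 15.9% of all genes called higher and 18.1% lower. The 10 not called include MITF (log2 change -0.06, SE 0.11, adjusted p = 0.774), the central transcription factor of the lineage. S100B, a calcium-binding marker of melanoma, read 90.3, 62.1 and 31.8 with MLN4924, against 1022, 946 and 974 with DMSO (log2 change -3.49, SE 0.15, adjusted p = 2.19e-15). ERBB3, a neuregulin receptor, read 395, 345 and 376 with MLN4924, against 3299, 3733 and 3799 with DMSO (log2 change -3.17, SE 0.08, adjusted p = 3.43e-19). Its 5 probe sets ran from -3.17 to -0.06, and 3 of them were not called. EDNRB, the endothelin receptor, read 264, 279 and 238 with MLN4924, against 713, 869 and 759 with DMSO (log2 change -1.47, SE 0.09, adjusted p = 1.58e-12). For S100B the treated arrays came close to the median signal, and ERBB3 kept a signal well above it. SOX10, the crest factor upstream of MITF and ERBB3, read 403, 364 and 421 with MLN4924, against 935, 773 and 911 with DMSO (log2 change -1.08, SE 0.19, adjusted p = 5.01e-05). The sum of the list's signals was 3532 to 3654 with MLN4924 and 9427 to 9873 with DMSO. Of 17 crest and invasion-associated genes, 3 rose and 10 fell (median -0.73). SOX5 read 390.4, 369 and 394 with MLN4924, against 3344, 3296 and 3088 with DMSO (log2 change -2.98, SE 0.07, adjusted p = 2.72e-20), and TWIST1, ZEB2, ZEB1, SNAI2 and FOXD3 changed by -1.37, -0.91, -0.83, -0.74 and -0.73. AP-2 factors parted, TFAP2A rising by 0.60 while TFAP2B and TFAP2C changed by -4.51 and -0.86. The receptor tyrosine kinases AXL and EGFR, which are high in dedifferentiated melanoma lines, rose by 1.14 and 0.61, and SOX9 and NGFR were not called.

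Matrix and adhesion genes mostly fell. Of 36 measured, 3 rose and 23 fell (median -0.51), against 15.9% of all genes called higher and 18.1% lower. LOXL4, a collagen-crosslinking oxidase, read 384, 393 and 403 with MLN4924, against 4172, 4121 and 4204 with DMSO (log2 change -3.30, SE 0.07, adjusted p = 5.75e-21). TNC, tenascin-C, read 507, 531 and 499 with MLN4924, against 3507, 3894 and 3780.2 with DMSO (log2 change -2.79, SE 0.11, adjusted p = 6.44e-16). ITGB3, the integrin beta-3 subunit, read 82.2, 82.4 and 89.4 with MLN4924, against 456, 538 and 586 with DMSO (log2 change -2.25, SE 0.11, adjusted p = 2.9e-14). Each was below all control arrays in every treated array. Laminins LAMA4 and LAMB1 changed by -2.0 and -1.17, basement membrane collagens COL4A1 and COL4A2 by -0.99 and -0.81, SPARC by -1.07 and the integrins ITGA6 and ITGAV by -1.84 and -0.60. LAMB3, FN1 and ITGA2 were the 3 that rose (0.87, 0.50 and 0.29). Of 21 genes of TGF-beta and BMP signalling, 3 rose and 9 fell (median -0.28). TGFBI, a matrix protein named for its induction by TGF-beta, read 331, 354 and 304 with MLN4924, against 1050.1, 1149 and 1112 with DMSO (log2 change -1.65, SE 0.09, adjusted p = 1.05e-13), the receptor TGFBR2 changed by -1.01 and the BMP target ID1 by -1.34, while the ligand TGFB2 rose by 1.00. Of 15 WNT genes, 1 rose and 7 fell (median -0.31): the receptor FZD7 read 108, 103 and 106 with MLN4924, against 474, 418 and 439.8 with DMSO (log2 change -1.79, SE 0.09, adjusted p = 4e-14), TCF7L2, SFRP1 and LEF1 changed by -1.53, -1.33 and -0.81, and the inhibitor DKK1 rose by 1.60. The feedback gene AXIN2 fell by 0.30 on the log2 scale.

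Secreted factors went both ways. Of 31 measured, 9 rose and 12 fell (median -0.15, but 0.15 without the probe sets that may bind several transcripts). These were 29.0% and 38.7% of them, against 15.9% of all genes called higher and 18.1% lower. IL24, a cytokine of the IL-10 family, read 1523, 1454 and 1539 with MLN4924, against 277, 235 and 236 with DMSO (log2 change 2.45, SE 0.09, adjusted p = 3.67e-16). HBEGF, a ligand of EGFR, read 569.7, 570.2 and 598 with MLN4924, against 63.4, 46.7 and 60.1 with DMSO (log2 change 2.79, SE 0.11, adjusted p = 1.01e-15). IL6 read 210.4, 223 and 209 with MLN4924, against 22.1, 24.7 and 31.5 with DMSO (log2 change 2.09, SE 0.11, adjusted p = 1.35e-13). These 3 were dim to modest in controls and brighter in each treated array. LIF, CXCL1 and VEGFA rose by 1.17, 0.89 and 0.80, whereas INHBA, TIMP1, PLAT and MMP1 changed by -1.23, -1.19, -1.01 and -0.97. CXCL8, CCL2 and IL1B were not called. Of 26 NF-kB genes, 11 rose and 2 fell (median 0.36): TNFAIP3 (A20), a feedback inhibitor, rose by 1.21, RELB and REL by 0.63 and 0.67, NFKB1 fell by 1.01 on the log2 scale, and NFKBIA, ICAM1 and TNF were not called. Of 31 interferon-responsive genes, 1 rose and 13 fell (median -0.24), or 1 and 5 of 22 without the probe sets that may bind several transcripts. ISG20, an exonuclease, read 297, 308 and 332 with MLN4924, against 1383, 1444 and 1421 with DMSO (log2 change -2.07, SE 0.09, adjusted p = 3.41e-15). IFITM1, a restriction factor of viral entry, read 48.4, 68.4 and 62.8 with MLN4924, against 306, 323 and 286 with DMSO (log2 change -1.88, SE 0.13, adjusted p = 1.03e-11). Both were lower in all treated arrays. IFIT1, IFITM3 and ISG15 changed by -1.49, -0.93 and -0.66, HLA-B by -0.50 and B2M by -0.27, and TAP1 was the member that rose (0.63).

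Chaperones of the endoplasmic reticulum mostly fell. Of 24 genes of the unfolded protein response, 3 rose and 15 fell (median -0.41), against 15.9% of all genes called higher and 18.1% lower. P4HB, protein disulfide isomerase, read 971, 562 and 1000.2 with MLN4924, against 1994, 1979 and 1885 with DMSO (log2 change -1.22, SE 0.15, adjusted p = 2.44e-07). PDIA4 read 422, 474 and 419 with MLN4924, against 969, 1077 and 1049 with DMSO (log2 change -1.18, SE 0.10, adjusted p = 5.84e-10). HSP90B1 changed by -0.80, the kinase gene EIF2AK3 (PERK) by -0.79, PDIA3 by -0.66 and the chaperone HSPA5 (BiP) by -0.38. No treated array of P4HB or PDIA4 reached a control array. XBP1 rose (log2 change 0.82, SE 0.09, adjusted p = 5.7e-08), with 1 other probe set of the gene called lower at -0.45, and ERN1 rose by 0.56. Of 17 cytosolic heat shock genes, 5 rose and 5 fell (median -0.06, which became 0.10 with signals as deposited and 0.17 with median centring), and 6 rose and 1 fell of 12 without the probe sets that may bind several transcripts (median 0.19). HSPA4L and HSF1 rose by 1.44 and 0.77, and HSPB1 and BAG3 changed by -0.97 and -0.66. Of 32 proteasome genes, 11 rose (34.4%) and 5 fell (15.6%), with a median of 0.12. PSMD3 and PSMC3 of the regulatory particle led them (0.85 and 0.76), with PSMD10 and PSMC6 at the other end (-0.70 and -0.45). With signals as deposited and with median centring, 14 rose and 2 fell (medians 0.25 and 0.32). Without the probe sets that may bind several transcripts, 10 of 24 rose and 1 fell, and PSMD10 lost its call (adjusted p = 0.0915). Of 25 lysosome and autophagy genes, 6 rose and 11 fell (median -0.11, 0.01 with median centring). CTSZ, a cathepsin, read 146, 129 and 191 with MLN4924, against 845, 679 and 735 with DMSO (log2 change -2.08, SE 0.18, adjusted p = 8.08e-10), WIPI1 and LAMP2 changed by -1.40 and -0.98, and GABARAPL1, an autophagosome protein, read 1022, 1156 and 867 with MLN4924, against 243, 237 and 244 with DMSO (log2 change 1.93, SE 0.11, adjusted p = 6.03e-13). The 4 probe sets of LAMP2 ran from -0.98 to 0.19, and 2 of them were not called.

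Metabolic genes went both ways. Of 24 HIF targets, 10 rose and 5 fell (median 0.12), led by ADM, the vasodilator peptide adrenomedullin, at 931, 911 and 964 with MLN4924, against 219.9, 193 and 215 with DMSO (log2 change 2.00, SE 0.07, adjusted p = 3.03e-17). VEGFA, PDK1 and SLC2A1 rose by 0.80, 0.74 and 0.74, while PFKFB4 and the collagen hydroxylase P4HA2 changed by -0.95 and -0.89, and EGLN3 was not called. Of 18 glycolysis genes, 6 rose and 0 fell (median 0.11, and 1 of 11 without the probe sets that may bind several transcripts), GPI by 0.61 and PFKP by 0.37. That called share, 33.3%, was near the 34.0% of all genes, but it depended on the scaling. With signals as deposited and with median centring, 9 of the 18 rose and 0 fell (medians 0.21 and 0.28). Of 23 genes of sterol and fatty acid synthesis, 2 rose and 10 fell (median -0.22). ELOVL6, a fatty acid elongase, read 391, 346 and 279.5 with MLN4924, against 1090.1, 960.3 and 956 with DMSO (log2 change -1.49, SE 0.13, adjusted p = 7.8e-10), and INSIG1, which retains the SREBP factors in the endoplasmic reticulum, read 279.8, 288 and 267 with MLN4924, against 749, 699.8 and 712 with DMSO (log2 change -1.28, SE 0.09, adjusted p = 2.74e-11). Both were lower in every treated array, while HMGCS1 and FDPS of the same pathway rose by 0.65 and 0.49. The sterol regulatory element, searched as TCACNCCAC on both strands, was in 0 of 12 windows of called genes of this list and in 1.13% of all windows. Of 46 respiratory chain genes, 7 rose and 11 fell (median 0.01, with 11 up and 5 down under median centring), shares near those of all genes (15.9% higher and 18.1% lower), NDUFB10 changing most (-1.01). Of 9 metallothionein and zinc transport genes, 1 rose and 1 fell, a called share of 22.2%, below the 34.0% of all genes. SLC30A1, the zinc exporter that metal induces together with them, read 1549.7, 1362 and 1401 with MLN4924, against 310.5, 299.8 and 319 with DMSO (log2 change 2.10, SE 0.12, adjusted p = 1.06e-12).

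Markers of other cell types were measured in the same arrays. Of 9 epithelial and keratinocyte markers, 4 rose and 1 fell, against 15.9% of all genes called higher and 18.1% lower. Their summed signal was 6176 to 6686 with MLN4924 and 2481 to 2587 with DMSO. SFN (14-3-3 sigma), also a known p53 target, read 1205, 1233 and 1465 with MLN4924, against 229.7, 273 and 214 with DMSO (log2 change 2.30, SE 0.10, adjusted p = 2.98e-15). FLG, the skin barrier protein filaggrin, read 95.0, 149 and 143 with MLN4924, against 16.5, 11.1 and 14 with DMSO (log2 change 1.79, SE 0.17, adjusted p = 3.88e-09), and KRT18, a simple epithelial keratin, read 4649.7, 4543 and 4824 with MLN4924, against 1988, 1997 and 2108 with DMSO (log2 change 1.19, SE 0.08, adjusted p = 3.49e-11). All 3 were higher in each treated array, with KRT18 bright in both groups, while EPCAM, CDH1, KRT5 and KRT19 were not called and KRT14 fell by 0.57 on the log2 scale. Of 9 fibroblast markers, 0 rose and 4 fell, with a summed signal of 333 to 376 with MLN4924 and 512 to 565 with DMSO. Without the probe sets that may bind several transcripts, 2 of 7 fell (median -0.02), and LUM and DCN lost their calls. PDGFRA read 2.14, 1.20 and 1.74 with MLN4924, against 56.8, 50.9 and 50.3 with DMSO (log2 change -1.33, SE 0.13, adjusted p = 1.11e-08). Its 4 probe sets ran from -1.33 to 0.20, and 3 of them, all dim, were not called. COL1A2, COL3A1 and DPT were below the median signal in both groups. Of 4 blood and 5 endothelial markers 1 was called, CDH5 (0.50), which is dim and whose arrays overlap. The part of other cells in any result above was not tested. Of 11 genes commonly used for scaling, 4 rose and 2 fell (median 0.01). Their median depended on the scaling: 0.21 with signals as deposited (4 up and 1 down) and 0.29 with median centring (5 up and 1 down). The transferrin receptor TFRC read 5828, 6116 and 5793 with MLN4924, against 2909, 3050.3 and 3079 with DMSO (log2 change 0.97, SE 0.06, adjusted p = 6.4e-13), HPRT1 rose by 0.48 and YWHAZ changed by -0.56, while GAPDH, PPIA, PGK1, GUSB and TBP were not called.

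**Figure D5:**
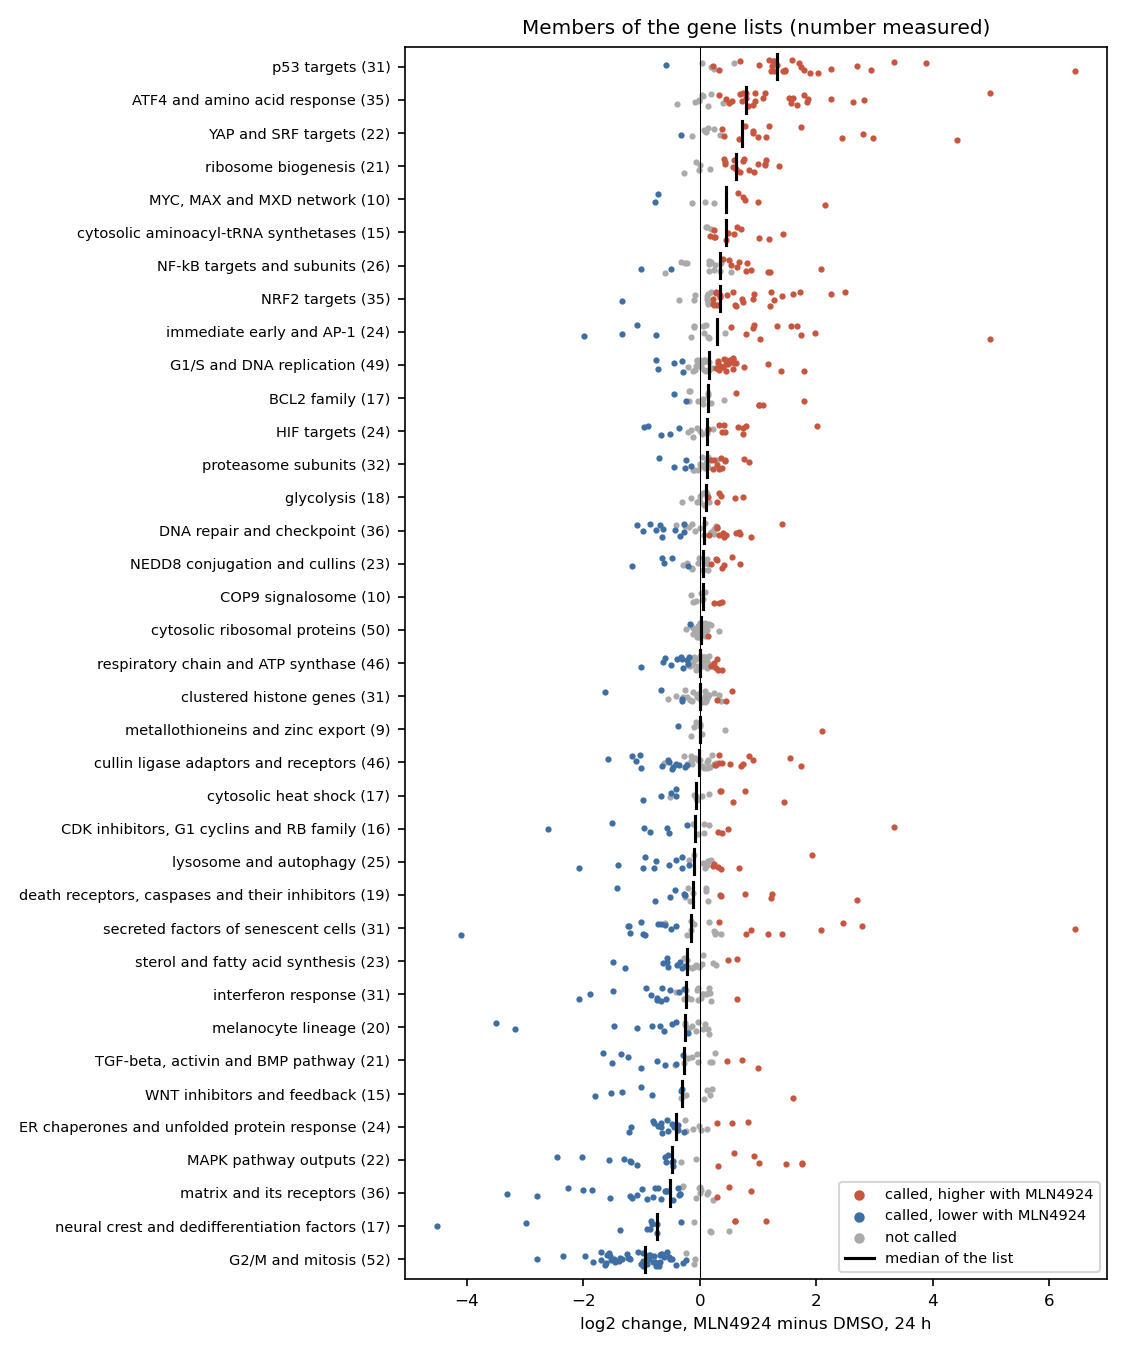
Log2 change, MLN4924 minus DMSO at 24 h, of every measured member of 37 gene lists (1 point per gene), with called members coloured by direction and a black line at each list's median; lists run from the highest median at the top to the lowest at the bottom. The p53, ATF4 and YAP and SRF lists stand at the top with medians of 1.32, 0.79 and 0.72, and the G2/M list is at the bottom at -0.94.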

How the data were processed

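RNA of A375 cells was measured on 30 Affymetrix HG-U133 Plus 2.0 arrays, and the 6 arrays of 24 h form the contrast described here. The deposited unit is a linear probe set intensity, which the authors made with Affymetrix Expression Console, per the submitters' processing notes. No source used here gives its version or algorithm. Values of 54675 probe sets ran from 0 to 18206.6, with a mean of 150.02 on every array after trimming 2% at each end. Of these probe sets, 41097 carried 1 gene symbol, 1801 several and 11777 none.

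Intensities were quantile-normalized between arrays, 32 was added and log2 taken. Each of 19775 genes was represented by its brightest probe set, by mean over all arrays, among those with a single symbol. limma 3.58.1 in R 4.3.3 fitted 1 mean for each of the 10 groups to all 30 arrays, with eBayes (20 residual and 3.033 prior degrees of freedom). The contrast was MLN4924 minus DMSO at 24 h, two-sided, with Benjamini-Hochberg adjustment over all genes and calls at an adjusted p under 0.05. With 3 arrays per group, the number of arrays limits the precision. Replicate numbers did not pair the samples: deviations from group means of same-numbered arrays correlated at 0.01, 0.05 and 0.04.

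The members and the 42 gene lists (1134 memberships, 1017 measured, the rest not analysed here) were chosen with earlier results of these data known, so list counts are descriptions. Genes named by rule are the 15 with the highest and the 15 with the lowest log2 change of those called with non-overlapping arrays and a group mean above the median signal, up to 4 such members per list and 11 genes of the drug pathway, 2 of them not analysed here. Clone and open reading frame symbols were skipped. Other list members and the families of the closing section were chosen after their values were seen. Promoter windows of 300 bases come from RefSeq (GRCh38.p14), and 15384 tested genes had one. Where a gene had several, only the first listed was used. Alternatives were 1 or 100 added to the signal, signals as deposited, median centring, dim genes left out, a fit of the 6 arrays only, a replicate block, averaging the probe sets of a gene, no probe sets ending in _x_at or _s_at (which may bind several transcripts), an intensity trend in eBayes, and leaving out each of the 6 arrays.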

Additional observations from a re-analysis of the deposited data

How the results depend on the processing

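The count of called genes, 6723, stayed within 1.5 times under every alternative tried. It was 6498 and 6846 with 1 and 100 added to the signal, 6813 with signals as deposited, 6647 with median centring, 6282 with only the 6 arrays of 24 h, 6507 when probe sets of a gene were averaged, 6725 with an intensity trend, 6798 of 13557 genes without dim genes, 5087 of 17100 genes without the probe sets that may bind several transcripts, and 6080 to 6277 with 1 array left out. The share of calls that were higher was 46.7%, and 54.1% with median centring. With the replicate block, 6702 genes were called, and 98.5% of the 6723 calls were among them. Of 173 named genes, 153 kept direction and call in all alternatives in which they were measured. Genes whose only probe sets may bind several transcripts, such as CDKN1A, TUBA1A and MYC, were absent when those sets were left out. They were compared in 15 alternatives rather than 16, so that setting was no check on them. Over 2729 comparisons of a named gene with an alternative, 46 lost the call, 6 gained it (NAE1) and 8 turned direction. The turns were RPL37 (0.067 as deposited, 0.14 with median centring, 1.22 with the mean of its probe sets and 2.20 without the probe sets that may bind several transcripts), DCN (0.00173) and NDUFA2 (0.0758) without those probe sets, and the NFE2L2 log2 change, which was not called, without MLN4924 replicate 1 (-0.0289) or DMSO replicate 3 (-0.0248), its range with 1 array left out being -0.0289 to 0.0497. The cause was not tested. Lost calls include CEMIP without those probe sets (adjusted p = 0.849), NEDD8 with signals as deposited, median centring, 6 arrays or without MLN4924 replicate 3 (adjusted p = 0.238, 0.817, 0.0595 and 0.0722), CUL3 with 6 arrays (0.0527) and GPS1 without DMSO replicate 1 (0.0633). Leaving out the probe sets that may bind several transcripts left fewer members in many lists: 6 of 16 sterol genes, 5 of 18 lysosome genes and 7 of 29 repair genes then fell, and 4 of 15 HIF targets and 7 of 17 immediate early genes rose. Signal over background limits dim genes: the added 32 compresses their changes, as for the 18 histone genes below the median signal.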

Other observations

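Members of small gene families, picked after the changes of their best-known members had been seen, are given here, beside 15.9% of all genes called higher and 18.1% called lower. Some moved in opposite directions. In the ERBB system, on the brightest probe set of each gene, the receptor ERBB3 fell while its ligand NRG1 rose. NRG1 was at 567 ± 105 with MLN4924 and 44.4 ± 6.04 with DMSO (SD, n = 3 each, as for all values here). EGFR rose, with signals of 116 ± 20.7 with MLN4924 and 64.4 ± 6.72 with DMSO, and its ligands parted: HBEGF rose (log2 change 2.79), while TGFA fell, with signals of 2211 ± 78.9 with MLN4924 and 4213 ± 171 with DMSO (log2 change -0.92). Of 4 ERBB receptors 1 rose and 1 fell, and of 9 ligands 2 rose and 2 fell. The tribbles pseudokinases also parted: TRIB3 rose by 2.63, while TRIB2 had signals of 122 ± 14 with MLN4924 and 1119.8 ± 61.5 with DMSO (log2 change -2.91) and TRIB1 changed by -0.93. Polo-like kinase PLK2, a stress gene, rose, with signals of 2797 ± 294 with MLN4924 and 728 ± 15.6 with DMSO, whereas the mitotic kinase PLK1 fell, with signals of 44.9 ± 5.17 with MLN4924 and 190.4 ± 7.08 with DMSO, and the centriole kinase PLK4 changed by -0.72. GADD45B rose as GADD45A did, with signals of 515 ± 49.8 with MLN4924 and 63.0 ± 9.20 with DMSO (log2 change 2.53), and the third GADD45 gene was not called.

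Among tubulins, TUBA1A stood out: its fall of 3.23 on the log2 scale compared with changes of -0.20 for TUBA1B, -0.25 for TUBB, -0.54 for TUBB3 and -0.47 for TUBB4B, while TUBB6 rose by 0.24. Of 7 insulin-like growth factor binding proteins 5 fell and IGFBP4 rose, with signals of 553 ± 80.4 with MLN4924 and 187 ± 13.5 with DMSO. Of 10 hyaluronan genes 6 fell, among them the cell surface protein gene CEMIP2 at 197 ± 13 with MLN4924 and 878 ± 127 with DMSO (log2 change -1.98), the receptor CD44 (-0.77) and the synthase HAS3 (-0.44). CEMIP is among the 6 and lost its call without the probe sets that may bind several transcripts (adjusted p = 0.849). NECTIN4 was the only called gene of 5, the nectins NECTIN1, NECTIN2, NECTIN3 and NECTIN4 and the related PVR. NFATC3 and NFAT5 rose by 0.84 and 0.38 while NFATC2 fell. SNAPC5 rose by 0.48 and SNAPC3 changed by -0.42, both far less than SNAPC1. Differences between members of a family were not tested.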
